A study of Mus musculus with 9 samples.

Results

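The samples are sorted cancer cells of mouse lung tumours, in which homozygous loss of Smarca4 was set against heterozygous loss. The comparison sets 3 libraries with 2 floxed Smarca4 alleles (KPS, Smarca4fl/fl) against 2 libraries with 1 floxed allele (KPS-HET, Smarca4fl/+), matched by sample title and genotype, out of 9 libraries in the study. The other 4 libraries came from tumours with no floxed Smarca4 allele (KP, Smarca4+/+), and they entered the fit to help estimate the spread and served as a second point of comparison. Among the alleles shared by mice of all 3 groups were Trp53fl/fl and the Cre-activated reporter Rosa26LSL-TdTom on a mixed B6;129S2 background, so loss of Trp53 is shared by the groups. Tumours were started by adenoviral Cre put into the trachea, with the CCSP promoter, which airway club cells use, driving Cre. Lungs were taken when mice were moribund and dissociated with enzymes, and the cancer cells were collected by FACS. RNA with polyA tails was sequenced in bulk after a low-input SMART-seq library preparation. The sources used here do not give ages, the sort gate or whether each library came from its own mouse. All p-values therefore refer to the spread among libraries.

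Smarca4 encodes BRG1, one of the 2 alternative ATPases of the BAF (SWI/SNF) complex, which slides and evicts nucleosomes at enhancers and promoters. The other ATPase is BRM, encoded by Smarca2. BAF activity is known to keep distal enhancers open and thereby to sustain lineage genes, and SMARCA4 is recurrently inactivated in human lung adenocarcinoma. By genotype the heterozygous group has 1 allele that Cre does not target, so the comparison sets 2 floxed alleles against 1. BRG1 protein and the state of the remaining allele in the tumours were not measured here.

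The estimated counts of a library summed to between 21368864 and 37114352 in KPS, 12607471 and 22705446 in KPS-HET, and 15275259 and 29231565 in KP. Levels are given as TMM-scaled CPM, counts scaled to a common library size, which can be compared between libraries for 1 gene but not between genes, since they are not divided by gene length. Markers of macrophages and monocytes differed widely between libraries of 1 group. Their summed level over 18 genes was 5162, 471 and 1344 CPM in KPS replicates 1, 2 and 3, against 1334 and 115 CPM in KPS-HET replicates 1 and 2. Defining markers of the sorted cells (Cdh1 and 4 others) summed to 6347 to 7636 CPM in KPS and to 4667 and 5629 CPM in KPS-HET. Sex-linked genes (Xist, Ddx3y, Eif2s3y, Kdm5d and Uty) summed to 337, 344 and 207 CPM in KPS and to 606 and 171 CPM in KPS-HET. In KP the sums were 183, 728, 170 and 208 CPM. The median log2 fold change of these genes was -0.42 (-0.97 without KPS-HET replicate 1, 7.44 without KPS-HET replicate 2). Genes discussed below that lie on the X chromosome include G6pdx, Bgn, Cldn2, Irs4 and Il13ra1. The part of sex in the differences was not tested. On the first principal component over all genes (32.4% of the variance) KPS libraries had scores of -89.3 to -71.8, KPS-HET libraries 14.2 and 39.4, and KP libraries 39.9 to 51.2. KPS-HET replicate 1 was the library closest to KPS on that axis, and the groups did not overlap on it.

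The level of the targeted gene was ordered by the number of floxed alleles, though neither step from 1 group to the next passed the main test. Smarca4 had 55.5, 39.9 and 47.6 CPM in the KPS libraries, 76.4 and 97.2 CPM in the KPS-HET libraries, and 110 to 137 CPM in the 4 KP libraries. No library of 1 group entered the range of another. By the edgeR quasi-likelihood test KPS-HET over KP gave -0.53 ± 0.17 on the log2 scale (SE, adjusted p 0.974). The difference between KPS and KPS-HET was -0.86 ± 0.18 on the log2 scale (SE), with an adjusted p of 0.0551 by the quasi-likelihood test of edgeR, just above the threshold of 0.05 used throughout. It passed without KPS replicate 1 (-1.03, adjusted p 0.0454) and failed when any of the other 8 libraries was left out. Counting was over the entire gene, and transcripts can still hold exons that Cre does not remove. The source of the Smarca4 counts left in KPS was not tested. Smarca2 had 42.8, 39.8 and 40.2 CPM in KPS against 32.6 and 41.9 CPM in KPS-HET, and the groups overlapped (0.14 ± 0.29, adjusted p 0.860). Of 25 BAF complex subunits tested none was called (adjusted p under 0.05), beside 0.932% of all genes tested. Their median log2 fold change was -0.06. The smallest p after Smarca4 belonged to Arid2, a subunit of the PBAF form. Arid2 had 106, 88.6 and 102 CPM in KPS and 72.8 and 66.5 CPM in KPS-HET (adjusted p 0.109). Trp53 itself was at 18.9, 7.96 and 18.3 CPM in KPS and at 6.50 and 9.80 CPM in KPS-HET, which overlap (adjusted p 0.351).

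Of 15663 genes tested, 146 were called (0.932%), that is, had an adjusted p under 0.05. In KPS 82 genes were higher (0.524% of those tested) and 64 were lower (0.409%). The 146 genes had no overlap between the 3 KPS and the 2 KPS-HET values, beside 36.4% of all genes tested. The genes that fell did so by more than those that rose, with a median log2 fold change of -2.10 against 1.24, and 16 fell while 6 rose by over 8-fold. The median over all genes was 0.01. At an unadjusted p under 0.05 there were 2584 genes. The calls depended on the 2 KPS-HET libraries. Without KPS-HET replicate 1 a single gene, Hpn, was called, and without KPS-HET replicate 2 there were 15 calls, all of them among the 146. Of the other libraries, leaving out KPS replicate 2 gave 42 calls, KP replicate 1 gave 52, KPS replicate 3 gave 61, KP replicate 4 gave 81, and KPS replicate 1, KP replicate 2 and KP replicate 3 gave 108 to 150. In a fit of the 5 KPS and KPS-HET libraries alone, 15 genes were called. All 146 genes had the same direction in every one of these settings.

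**Figure D1:**
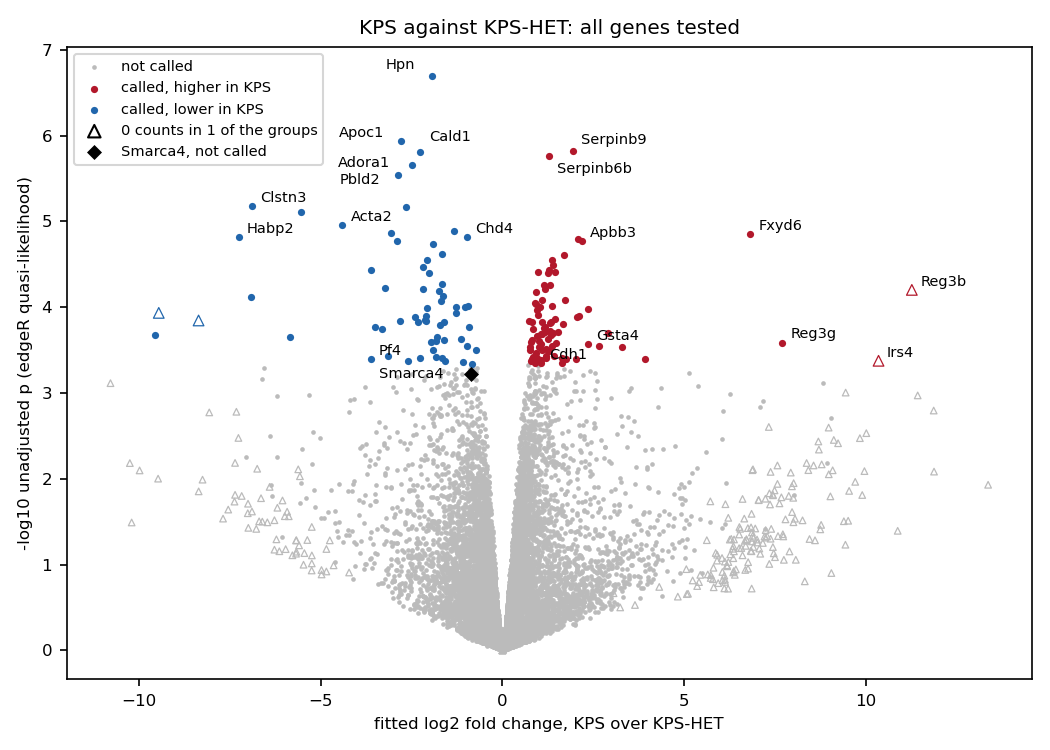
Fitted log2 fold change of KPS over KPS-HET (horizontal) against the -log10 unadjusted p of the edgeR quasi-likelihood test (vertical), 1 point for each of 15663 genes. Red points are the 82 genes called higher and blue points the 64 called lower in KPS; triangles mark genes with 0 counts in 1 of the groups, whose fitted fold is no measured size, and the black diamond is Smarca4, which lies just under the called genes.

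Lectins of the regenerating family were among the genes that rose most. Reg3b and Reg3g encode secreted C-type lectins that bind bacterial cell walls and are best known from the gut and the inflamed pancreas and airway. Reg3b had 9.36, 14.2 and 19.0 CPM in the KPS libraries and 0 counts in both KPS-HET libraries, and it also had 0 counts in the 4 KP libraries. With 3 counts over the KPS-HET group as the floor, it was at least 163-fold higher in KPS than in KPS-HET (adjusted p 0.0253). Reg3g had 45.4, 279 and 174 CPM in KPS against 1.37 and 0 CPM in KPS-HET, a log2 difference of 7.68 ± 1.33 (adjusted p 0.0389). KPS replicate 1 was the lowest KPS library for both genes. It lay above both KPS-HET libraries, which the rule for naming genes required. Reg1, another family member on the lists, had 3.50, 43.0 and 18.1 CPM in KPS and 0 counts in KPS-HET, but did not pass (adjusted p 0.0767). Reg2, Reg3a and Reg3d were on the lists as well and were not among the called genes. Reg4, also of this family, had a log2 difference of -0.96 (adjusted p 0.889). The Reg3b call was lost without KPS replicate 2, KPS replicate 3 or either KPS-HET library (adjusted p 0.0632 to 0.143), and the Reg3g call without those or without KP replicate 1 or 4 (0.0543 to 0.163). Neither passed with limma-voom (adjusted p 0.0560 for Reg3b and 0.340 for Reg3g), and Reg3g was lost too with no filter on low counts (0.0708) and in the fit of the 5 KPS and KPS-HET libraries (0.0889). The fitted log2 difference of Reg3g was 14.77 without KPS-HET replicate 1, which left only the library at 0 counts in that group.

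The promoter windows of Reg3b and Reg3g are shown because both genes rose and because they lie on the same chromosome. They come from RefSeq (GRCm38.p6, not the build of the deposited counts) and run from 250 bases before to 50 bases after the start of the gene. Capitals mark the longest run of bases that the windows share, 29 bases that begin 20 bases before the start in each. The 2 windows are at chr6:78370635-78370934 on the plus strand for Reg3b and at chr6:78468825-78469124 on the minus strand for Reg3g.
Reg3b: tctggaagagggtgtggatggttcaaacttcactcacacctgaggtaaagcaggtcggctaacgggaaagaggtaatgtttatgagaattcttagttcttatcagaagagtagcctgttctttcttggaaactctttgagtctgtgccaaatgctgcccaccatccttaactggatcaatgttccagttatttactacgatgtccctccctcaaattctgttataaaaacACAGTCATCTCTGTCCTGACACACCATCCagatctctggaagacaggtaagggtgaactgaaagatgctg
Reg3g: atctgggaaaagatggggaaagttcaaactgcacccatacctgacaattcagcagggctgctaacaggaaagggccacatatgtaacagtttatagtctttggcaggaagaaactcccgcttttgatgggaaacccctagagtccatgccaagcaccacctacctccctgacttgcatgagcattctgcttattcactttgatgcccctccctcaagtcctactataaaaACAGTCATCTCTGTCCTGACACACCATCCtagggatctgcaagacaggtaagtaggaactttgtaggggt

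The other genes that rose most included secreted, signalling and neuron-associated genes. Fxyd6, a regulator of the sodium pump, had 27.7, 18.7 and 45.4 CPM in KPS against 0.128 and 0.452 CPM in KPS-HET (6.82 ± 0.87 on the log2 scale, adjusted p 0.0141). Irs4, an insulin receptor substrate, had 8.12, 1.36 and 13.0 CPM in KPS and 0 counts in KPS-HET, so it was at least 94.97-fold higher (adjusted p 0.0475). KPS replicate 2 was low for Irs4 and KPS replicate 3 high. Kng1, which encodes kininogen, the precursor of bradykinin, had 30.01, 97.1 and 112 CPM in KPS against 5.61 and 4.82 CPM in KPS-HET (3.92 ± 0.74, adjusted p 0.0466). Edn1, which encodes the vasoconstrictor peptide endothelin-1, stood at 44.8, 47.2 and 47.8 CPM in KPS against 11.0 and 7.31 CPM in KPS-HET (2.34 ± 0.38, adjusted p 0.0299). The 3 KPS values of Edn1 were nearly equal, while those of Kng1 spread over more than 3-fold. Arl14, a small GTPase, Rnf208, a ubiquitin ligase, and Aplp1, an amyloid precursor-like protein of neurons, rose by 3.30 ± 0.61, 2.91 ± 0.51 and 2.65 ± 0.49 (adjusted p 0.0405, 0.0357 and 0.0405). Apbb3, an adaptor that binds the amyloid precursor, rose by 2.18 ± 0.29, and the precursor gene App, picked after its values were seen, was called too, at a smaller 0.81 ± 0.14. Tmem151a, Adamtsl4, a matrix protein of microfibrils, and Cda, the cytidine deaminase that inactivates cytosine analogues, rose by 2.11 ± 0.35, 2.07 ± 0.27 and 1.70 ± 0.23. Without KPS-HET replicate 1 every gene of this paragraph lost its call, with adjusted p from 0.113 for Apbb3 to 0.285 for Kng1, and without KPS-HET replicate 2 every one except Apbb3 did (0.0717 for Fxyd6 to 0.219 for Kng1). Kng1, Edn1, Arl14, Rnf208, Aplp1, Tmem151a and App were also lost without KPS replicate 2 or KP replicate 1, all 7 except App without KPS replicate 3, and Irs4 when any library except KPS replicate 2 was left out. The difference of Fxyd6 was 6.02 without KPS-HET replicate 1 and 7.84 without KPS-HET replicate 2, and limma-voom called neither Fxyd6 (0.0793), Irs4 (0.216) nor Kng1 (0.141). With a macrophage marker term Irs4, Edn1, Arl14, Rnf208, Aplp1 and App were lost (0.0539 for Rnf208 to 0.0912 for Irs4).

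Serpins that protect cells from granule proteases had the smallest p among the genes that rose. Serpinb9, an inhibitor of granzyme B, had 499, 450 and 386 CPM in KPS against 104 and 128 CPM in KPS-HET, a log2 difference of 1.94 ± 0.19 (adjusted p 0.00542). Serpinb6b, of the same intracellular clade, had 208, 194 and 200 CPM in KPS against 79.9 and 86.8 CPM in KPS-HET, a difference of 1.27 ± 0.13 (adjusted p 0.00542). In both genes the groups were far apart relative to the spread inside them. These calls were lost without KPS-HET replicate 1 (adjusted p 0.0906 for each) and held with any other library left out. Both genes have close paralogs, and the estimation can divide reads between near-identical genes.

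Of the NRF2 target list, 4 genes that act against oxidants or supply NADPH rose. NRF2 is a transcription factor that is released under oxidative stress and binds antioxidant response elements. They were the called members among 20 tested, with none called lower (background 0.524% higher), and the list had a median log2 fold change of 0.17. Gsta4, which conjugates glutathione to lipid peroxidation products, had 889, 1202 and 1589 CPM in KPS against 180 and 303 CPM in KPS-HET (2.34 ± 0.42, adjusted p 0.0395). Pgd and G6pdx, the NADPH-producing dehydrogenases of the pentose phosphate pathway, rose by 1.71 ± 0.27 and 1.15 ± 0.20 (adjusted p 0.0290 and 0.0338). G6pdx stood at 380, 260 and 357 CPM in KPS against 153 and 147 CPM in KPS-HET. Srxn1, which repairs oxidised peroxiredoxins, had 247, 116 and 135 CPM in KPS against 46.1 and 52.0 CPM in KPS-HET (1.76 ± 0.34, adjusted p 0.0466). KPS replicate 1, the library with the highest macrophage marker level, was the highest KPS library for Srxn1, Pgd and G6pdx and the lowest for Gsta4. Nqo1, the usual reporter of NRF2, had a log2 difference of -0.53 (adjusted p 0.675), Gclm one of 0.21 (0.589) and Txnrd1 one of 0.33 (0.454). With a macrophage marker term in the fit, all 4 calls were lost (adjusted p 0.0504 for Gsta4, 0.0756 for Pgd, 0.0816 for G6pdx and 0.109 for Srxn1), and the part of those cells in the difference was not tested further. Each was also lost without either KPS-HET library, Pgd without KPS replicate 2 or KP replicate 1, Gsta4 without KPS replicates 2 or 3 or KP replicates 2 or 4, G6pdx without KPS replicates 1 or 3 or KP replicates 1 or 2, and Srxn1 without any 1 of the 9 libraries (adjusted p up to 0.301).

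The promoter windows of Srxn1 and G6pdx are shown as 2 of the 4 called NRF2 targets. The window of Pgd, not shown, held no match to the antioxidant response core or to the other letters searched. No window was available for Gsta4. The Srxn1 window holds 2 matches to the AP-1 letters TGANTCA, which begin 102 and 45 bases before the start, 1 match to the antioxidant response core TGACNNNGC and 1 to the NKX2 letters CAAGTG, these 2 as the reverse complement. The G6pdx window holds 1 match to the antioxidant response core, as the reverse complement, 57 bases before the start. Capitals mark these matches. The windows are at chr2:152105274-152105573 on the plus strand for Srxn1 and at chrX:74428831-74429130 on the minus strand for G6pdx, from the same RefSeq table.
Srxn1: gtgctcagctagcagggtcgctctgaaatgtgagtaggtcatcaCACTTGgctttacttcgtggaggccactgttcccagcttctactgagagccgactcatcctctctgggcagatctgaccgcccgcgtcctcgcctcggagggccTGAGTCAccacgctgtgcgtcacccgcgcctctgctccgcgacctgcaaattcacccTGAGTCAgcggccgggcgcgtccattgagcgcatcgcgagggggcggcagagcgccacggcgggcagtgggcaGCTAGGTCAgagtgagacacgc
G6pdx: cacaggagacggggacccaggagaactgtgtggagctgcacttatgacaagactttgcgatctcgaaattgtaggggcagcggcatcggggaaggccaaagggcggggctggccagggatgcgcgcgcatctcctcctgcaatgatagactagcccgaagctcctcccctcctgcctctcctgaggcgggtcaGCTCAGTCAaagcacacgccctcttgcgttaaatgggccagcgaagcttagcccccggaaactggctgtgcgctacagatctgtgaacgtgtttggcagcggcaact

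The same letters were counted in the windows of all genes. Both strands of each window were searched for 5 sets of letters, and AP-1 and antioxidant core matches can overlap each other. The antioxidant response core was found in 18.8% of 69 windows of genes called higher, in 13.0% of 46 windows of genes called lower and in 14.7% of 12290 windows of all genes tested. AP-1 letters were found in 5.80%, 4.35% and 5.71% of the same windows in that order. For the TEAD letters GGAATG the shares were 7.25%, 15.2% and 12.4%, for the FOXA letters TGTTTAC 1.45%, 2.17% and 2.60%, and for the NKX2 letters 14.5%, 10.9% and 11.4%. The shares are descriptions of these windows and were not tested.

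Several other detoxifying enzymes fell instead. Of 22 glutathione, glucuronosyl and sulfo transferases tested, 2 were lower (background 0.409%) and 1, Gsta4, was higher, and the list median was -0.57. Gstm2 had 26.6, 9.03 and 21.5 CPM in KPS against 122 and 70.3 CPM in KPS-HET (-2.33 ± 0.39, adjusted p 0.0319). Gstp2 had 23.1, 21.4 and 32.5 CPM in KPS against 107 and 61.4 CPM in KPS-HET (-1.71 ± 0.29, adjusted p 0.0326), and its near-identical neighbour Gstp1 did not pass (-0.37, adjusted p 0.409), so the division of reads between them is uncertain. Gstt1 missed the threshold at -1.50 ± 0.30 (adjusted p 0.0551). Catalase (Cat), which breaks down hydrogen peroxide, fell by 1.09 on the log2 scale (adjusted p 0.0478), and monoamine oxidase B (Maob) fell by 1.13 (0.0381). Cat and Maob are on none of the lists and were picked after their values were seen. Gstm2, Gstp2, Cat and Maob were lost without either KPS-HET library (adjusted p up to 0.298). Gstm2 was lost too without KPS replicate 3 or KP replicates 1, 2 or 4, Gstp2 without KPS replicates 1 or 2 or KP replicate 1, Cat without any library except KPS replicate 1 and KP replicate 3, and Maob without any KPS library or KP replicate 4.

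**Figure D2:**
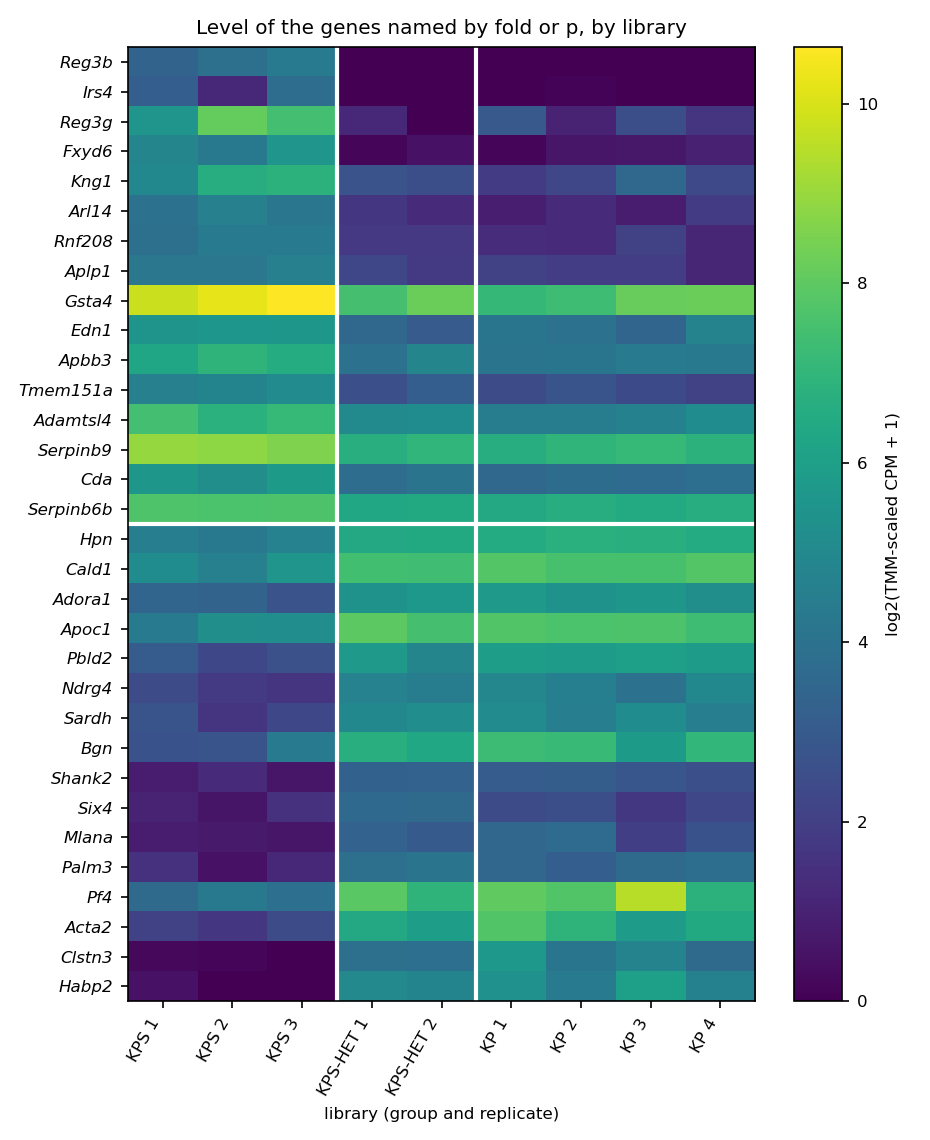
Level of the 32 genes named by the size of the fold or by p, as log2(TMM-scaled CPM + 1), in each of the 9 libraries (columns, KPS left of KPS-HET left of KP; rows, genes in order of the fitted fold change). Genes were named only where the KPS and KPS-HET libraries did not overlap. The 3 KPS columns are therefore brighter than the 2 KPS-HET columns in every row above the horizontal line and darker in every row below it.

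Contractile and matrix genes were among those that fell furthest. Acta2, smooth muscle actin, had 3.28, 2.23 and 4.52 CPM in KPS against 83.6 and 58.8 CPM in KPS-HET (-4.41 ± 0.53, adjusted p 0.0141). Cald1, which encodes the actin-binding protein caldesmon, had 35.2, 23.8 and 45.3 CPM in KPS against 169 and 164 CPM in KPS-HET (-2.26 ± 0.23, adjusted p 0.00542). Bgn, the small proteoglycan biglycan, had 5.42, 5.78 and 19.3 CPM in KPS against 102 and 79.5 CPM in KPS-HET (-3.16 ± 0.58, adjusted p 0.0466), and KPS replicate 3 was its highest KPS library. Acta2 is also a fibroblast and smooth muscle marker, and 1 of 12 such markers tested was called (background 0.932% in either direction). Of these markers 9 had a positive log2 fold change. The median was 1.94 (3.95 without KPS-HET replicate 1, 1.03 without KPS-HET replicate 2 and 1.28 with a macrophage marker term). Summed over 14 of these markers the level was 28.6, 12.0 and 89.6 CPM in KPS against 99.3 and 62.5 CPM in KPS-HET, which overlap. Other markers on that list pointed the other way without passing, with Col1a1 at 3.72 (adjusted p 0.103) and Col1a2 at 3.66 (0.329) on the log2 scale. In bulk RNA, fewer cells of a type and less RNA per cell cannot be told apart, and the part of other cells in the fall of Acta2 was not tested. Acta2 and Cald1 were lost without KPS-HET replicate 1 (adjusted p 0.0906 and 0.0618) and held with any other library left out, and limma-voom did not call Acta2 (0.0569). Bgn was lost without any library except KPS replicate 3 and KP replicate 3 (up to 0.212), and its difference was -4.04 without KPS replicate 3.

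Genes of membrane and plasma proteins best known from the liver were also among those that fell. Hpn, the membrane serine protease hepsin, had the smallest p of all genes, with 22.2, 18.7 and 25.3 CPM in KPS against 83.6 and 86.9 CPM in KPS-HET (-1.95 ± 0.16, adjusted p 0.00314). It was called in every setting tried. Habp2, a plasma hyaluronan-binding protease, had 0.441, 0 and 0 CPM in KPS against 31.5 and 26.5 CPM in KPS-HET (-7.26 ± 0.91, adjusted p 0.0141). Apoc1, an apolipoprotein, had 19.4, 37.4 and 36.6 CPM in KPS against 247 and 180 CPM in KPS-HET (-2.78 ± 0.27, adjusted p 0.00542). Of the 3 KPS libraries, 2 thus had no Habp2 count, while both KPS-HET libraries had over 20 CPM. Trf (transferrin) fell by 2.19, Proc (protein C) by 2.59 and Gas6, the ligand of TAM receptors, by 1.60 on the log2 scale (adjusted p 0.0198, 0.0475 and 0.0319). Trf, Proc and Gas6 were picked after their values were seen. Kng1 (kininogen), given above, rose instead (3.92, adjusted p 0.0466). On the list of gastric, gut and liver endoderm genes, only Reg3b was called among 28 tested (background 0.932% in either direction). Of the 28, 14 had a positive and 14 a negative log2 fold change, with a median of -0.04 (0.29 without KPS replicate 1). The hepatic genes Afp (-2.49, adjusted p 0.0551) and Alb (-4.15, adjusted p 0.183) did not pass. Neither did Reg1, at 0 counts in KPS-HET, and Tff1 (3.28, adjusted p 0.0933), which were higher in KPS. Habp2 was lost without either KPS-HET library (0.0906 and 0.0598), Apoc1 without KPS-HET replicate 1 (0.0618), Trf and Gas6 without either KPS-HET library or KPS replicate 2, Trf without KPS replicate 3, Gas6 without KP replicate 1, and Proc without any 1 of the 9. Without KPS replicate 1, whose 0.441 CPM is the only Habp2 signal in KPS, the fitted difference of Habp2 was -12.18, and limma-voom did not call the gene (adjusted p 0.116).

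Synaptic, channel and receptor genes were among those that fell too. Clstn3, a synaptic calsyntenin that also occurs in fat cells, had 0.165, 0.146 and 0 CPM in KPS against 14.0 and 13.6 CPM in KPS-HET (-6.90 ± 0.81, adjusted p 0.0118). Adora1, the adenosine A1 receptor, had 10.0, 9.32 and 5.66 CPM in KPS against 42.8 and 50.3 CPM in KPS-HET (-2.48 ± 0.26, adjusted p 0.00576). Shank2, a scaffold of excitatory synapses, fell by 3.24 and Ndrg4 by 2.92 on the log2 scale (adjusted p 0.0252 and 0.0141). Kcnf1, a potassium channel subunit chosen after its values were seen, had 0 counts in KPS against 2.40 and 5.73 CPM in KPS-HET and was at least 95.8-fold lower (adjusted p 0.0317). The groups lay far apart in each of these genes, and the KPS values were near or at 0 in Clstn3 and Kcnf1. Clstn3, which limma-voom did not call (0.153) and which differed by -7.54 without KPS replicate 1, and Adora1 were lost without KPS-HET replicate 1 (0.0750 and 0.0618), and Shank2, Ndrg4 and Kcnf1 without either KPS-HET library (0.0692 to 0.139). Shank2 and Kcnf1 were lost without KPS replicate 3 and KP replicate 1 too, and Kcnf1 without KPS replicate 2 and KP replicate 4.

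Metabolic and other genes with the largest falls were Sardh, the mitochondrial sarcosine dehydrogenase, Pbld2, Palm3 and Mlana. Pbld2 had 7.49, 3.88 and 5.22 CPM in KPS against 53.4 and 27.8 CPM in KPS-HET (-2.87 ± 0.31, adjusted p 0.00651). Sardh fell by 3.06, Palm3 by 3.62 and Mlana, a melanosome protein, by 3.52 on the log2 scale (adjusted p 0.0141, 0.0198 and 0.0333). Pf4, the chemokine CXCL4, which platelets and some macrophages store, had 11.8, 18.6 and 13.7 CPM in KPS against 242 and 120 CPM in KPS-HET (-3.63 ± 0.68, adjusted p 0.0466). Pf4 was low in all 3 KPS libraries, and it was higher in KPS-HET replicate 1 than in KPS-HET replicate 2. Macrophage markers were highest in replicate 1 of KPS and of KPS-HET, and their part in the Pf4 difference was not tested. Of 30 chemokines and cytokines tested, 1 was lower, Pf4 (background 0.409%), and 1 was higher, Cx3cl1 (background 0.524%). Cx3cl1, an adhesive chemokine of epithelium and endothelium, rose by 0.94 ± 0.15 (adjusted p 0.0301). The Pf4 call was lost without any library except KP replicates 3 and 4 (adjusted p up to 0.247) and with a macrophage marker term (0.0816). Cx3cl1 was lost without any library except KPS replicate 1 and KP replicates 2 and 3, Mlana without any except KP replicates 2 and 3, Palm3 without KPS replicate 3 or either KPS-HET library, Sardh without either KPS-HET library, and Pbld2 without KPS-HET replicate 1 (0.0618).

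Called transcription factor and chromatin genes went both ways. Six4, a homeobox factor of muscle and sensory organs, had 1.02, 0.534 and 1.89 CPM in KPS against 11.3 and 11.8 CPM in KPS-HET (-3.33 ± 0.58, adjusted p 0.0343). The KP libraries, at 2.30 to 4.82 CPM, lay between the other groups without overlap. The zinc finger genes Zfp462 and Zfp521 fell by 5.53 and 5.85 on the log2 scale (adjusted p 0.0121 and 0.0371), with Zfp462 at 0.0551, 0.0971 and 0.132 CPM in KPS against 6.25 and 2.71 CPM in KPS-HET. Smaller falls were seen in Tcf7l1, a repressor of WNT targets (-1.33 ± 0.17, adjusted p 0.0141), Chd4, the ATPase of the NuRD complex (-0.97 ± 0.13, adjusted p 0.0141), Tet3, a 5-methylcytosine dioxygenase (-0.97 ± 0.18, adjusted p 0.0405), and Zfhx3 (-1.03 ± 0.17, adjusted p 0.0293). Chd4 had 76.6, 70.5 and 78.5 CPM in KPS against 141 and 154 CPM in KPS-HET, so the groups stood about 1 log2 unit apart with little spread. Gata5, a GATA factor of heart and gut, and Morf4l1, a subunit of histone acetyltransferase complexes, rose by 2.05 ± 0.34 and 0.81 ± 0.16 (adjusted p 0.0319 and 0.0466). Apart from Six4 these genes were gathered by role after their values were seen, and the direction of the whole class was not tested. Of 26 lung epithelial transcription factors none was called (background 0.932% in either direction). Nkx2-1, the lung identity factor, had 179, 152 and 119 CPM in KPS against 270 and 200 CPM in KPS-HET (-0.65 ± 0.18, adjusted p 0.122). Chd4 and Tcf7l1 were lost without either KPS-HET library (0.0738 to 0.113), Zfp462 without KPS-HET replicate 1 (0.0906, at a difference of -4.84) and with limma-voom (0.0580), Six4 without any library except KPS replicate 3 and KP replicates 2 and 3, Tet3 and Gata5 without any except KP replicates 2 and 3, Zfp521 and Morf4l1 without any except KP replicate 3, and Zfhx3 without either KPS-HET library, KPS replicates 2 or 3 or KP replicate 1. Six4, Zfp521, Tet3 and Morf4l1 were lost with a macrophage marker term (0.0767 to 0.105), and Zfp521 differed by -6.46 without KPS-HET replicate 1 and by -4.92 without KPS-HET replicate 2.

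Adhesion and cytoskeleton genes went both ways. Cdh1, E-cadherin, had 1756, 1531 and 1318 CPM in KPS against 649 and 818 CPM in KPS-HET (1.07 ± 0.21, adjusted p 0.0483), and Ctnnb1, its partner beta-catenin, rose by 0.83 ± 0.16 (adjusted p 0.0466). Cdh1 was the 1 called gene among 22 epithelial junction genes (background 0.932% in either direction), whose median log2 fold change was 0.19. Dag1, a laminin receptor, Cadm1 and the transglutaminase Tgm2 rose by 1.06 ± 0.20, 1.53 ± 0.27 and 1.47 ± 0.27. Anxa1, a membrane-binding annexin, rose by 1.38 ± 0.24 and its relative Anxa2 by 0.77 ± 0.14. Gelsolin (Gsn), which severs actin filaments, rose by 1.64 ± 0.32. Lima1, which bundles them, had 194, 174 and 181 CPM in KPS against 62.5 and 96.5 CPM in KPS-HET (adjusted p 0.0466). Kidney-type cadherin Cdh16, the paracellular channel claudin Cldn2 and Tm4sf1 fell by 1.84, 2.03 and 2.19 on the log2 scale, and Tubb6, a beta-tubulin, fell by 1.61. Apart from Cdh1 the genes in this paragraph were chosen after their values were seen. Every call here was lost without KPS-HET replicate 1, and every one except Anxa1 without KPS-HET replicate 2. Cldn2 held with any other library left out and Tm4sf1 with any other except KPS replicate 3, Ctnnb1 was lost without any 1 of the 9 and Cdh1 without any except KP replicate 2 (up to 0.333), and the others were lost without KPS replicate 2 and at least 3 more libraries each. KPS replicate 1 had the highest macrophage marker level, and with a term for it every call here was lost (adjusted p 0.0567 for Anxa1 to 0.107 for Cdh1) except those of Tgm2, Cldn2, Tm4sf1 and Tubb6.

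Genes that rose also included receptors, adaptors and enzymes of signalling, antigen loading and lysosomes. Tgfbr2, the type II receptor for TGF-beta, had 537, 322 and 280 CPM in KPS against 116 and 123 CPM in KPS-HET (1.67 ± 0.28, adjusted p 0.0326). Myd88, the adaptor of Toll-like and interleukin-1 receptors, had 73.2, 98.0 and 71.0 CPM in KPS against 32.6 and 30.6 CPM in KPS-HET (1.35 ± 0.19, adjusted p 0.0185). KPS replicate 1 was the highest library for Tgfbr2 but not for Myd88. Il6st, the shared receptor chain of the interleukin-6 family, Il13ra1 and Il18rap rose by 0.88 ± 0.14, 0.92 ± 0.17 and 2.02 ± 0.39 (adjusted p 0.0293, 0.0447 and 0.0466). Hif1a, the oxygen-regulated transcription factor subunit, rose by 1.32 ± 0.23 (adjusted p 0.0353), and Hk1, the first enzyme of glycolysis, by 1.15 ± 0.17 (adjusted p 0.0247). Hk1 was the 1 called gene among 23 glycolysis and hypoxia genes (background 0.932% in either direction). Tapbp, the tapasin of the peptide-loading complex, rose by 0.97 ± 0.16 (adjusted p 0.0319). It was the 1 called gene among 18 MHC class I genes, beside the same background. The lysosomal enzymes Ctsh and Hexa rose by 0.95 ± 0.18 and 1.04 ± 0.17 (adjusted p 0.0466 and 0.0293). Hk1 and Tapbp come from lists and the others were chosen after their values were seen. Every call here was lost without either KPS-HET library and, except for Myd88, without KPS replicate 2. Hk1, Il6st, Tapbp, Il13ra1, Il18rap and Ctsh were lost without KPS replicate 3, all except Myd88, Hk1 and Tapbp without KP replicate 1, and, with a macrophage marker term, all except Myd88 and Hk1 (adjusted p 0.0501 for Tapbp to 0.114 for Ctsh).

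Most cell-type and pathway lists held no called gene or 1. Over the 31 lists of genes, 585 members were tested and 14 were called (2.39%, beside 0.932% of all genes). The lists were chosen with earlier results of these data known, so the higher share is no evidence about the lists. Club and secretory cell markers, of the cells in which the CCSP promoter is active, held 2 genes called higher, Reg3g and Gsta4, among 20, with a list median of -0.26. Scgb1a1 itself, which encodes CCSP, had 1294, 2264 and 2526 CPM in KPS against 5497 and 3982 CPM in KPS-HET, without overlap, and did not pass (-1.22 ± 0.29, adjusted p 0.0783). Of 22 alveolar type 2 markers, 20 had a negative and 2 a positive log2 fold change, with a median of -0.58 and none called, and Fabp5 came closest (-1.29 ± 0.26, adjusted p 0.0539). Ciliated cell markers had 11 of 12 negative and a median of -0.91, none called, with Foxj1, the master factor of motile cilia, at 9.42, 11.5 and 9.78 CPM in KPS against 27.4 and 30.8 CPM in KPS-HET (adjusted p 0.191). Foxj1 in KP replicates 3 and 4, at 9.36 and 10.4 CPM, was as low as in KPS. Basal and squamous genes and transitional cell state genes each held 1 gene called higher, the cell-cycle inhibitor Sfn (1.44 ± 0.21, adjusted p 0.0198), among 12 and 20 genes. Sfn was lost without either KPS-HET library (0.184 and 0.107).

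Among the 31 gene lists, neuroendocrine and mesenchymal genes had the highest medians, at 2.06 over 15 and 1.23 over 15 genes, and none of their members passed. Chgb, a granin of secretory vesicles, had 1.68, 23.1 and 22.9 CPM in KPS and 0 counts in KPS-HET, at least 162-fold higher, with an adjusted p of 0.0625. Chga had 5.34, 4.90 and 5.53 CPM in KPS and 0 counts in KPS-HET, at least 64.5-fold higher (adjusted p 0.104). Neurod1, a neuroendocrine transcription factor, had 2.26, 6.94 and 3.69 CPM in KPS against 0.0428 and 0 CPM in KPS-HET (adjusted p 0.0737). These 3 genes, the list members of smallest p, were seen in each KPS library and at most as single counts in KPS-HET. Over the list, 12 of 15 were positive and 3 negative, among them Ddc, a decarboxylase of amine synthesis, with 9.25, 1.60 and 1.27 CPM in KPS against 27.9 and 12.1 CPM in KPS-HET (adjusted p 0.207). The summed level was 36.6, 67.3 and 72.5 CPM in KPS against 36.7 and 24.3 CPM in KPS-HET, and the groups overlapped. In KP the sum was 52.2, 37.2, 117 and 45.9 CPM, and KP replicate 3 lay above every KPS library. The neuroendocrine median was again 2.06 when bounds replaced the fitted values of genes at 0. The median of YAP-TEAD target genes was 0.74, with 13 of 15 positive and none called, and F3, tissue factor, came closest with 1842, 1282 and 1333 CPM in KPS against 461 and 612 CPM in KPS-HET (adjusted p 0.0622). Integrins, laminins and matrix proteases had 20 of 26 positive (median 0.40), interferon response genes 18 of 23 (0.47), and fatty acid and cholesterol synthesis genes 18 of 23 (0.12), none called. Mitosis genes had 16 of 20 negative (median -0.34) and MHC class II genes 9 of 10 (-0.33), none called. Without KPS-HET replicate 1 the medians of the mitosis, MHC class II, DNA replication and club cell lists were positive (0.30, 0.06, 0.08 and 0.08), without KPS replicate 1 that of alveolar type 1 markers was negative (-0.12), and the neuroendocrine median was 3.55 without KPS replicate 1 and 3.87 without KPS-HET replicate 1. Without KPS-HET replicate 2 the mesenchymal median was 0.58, and those of basal and squamous, immediate early and NOTCH genes were negative (-0.12, -0.13 and -0.04). DNA replication (-0.15), RAS-MAPK output (-0.15), immediate early (0.05), oxidative phosphorylation (0.08), p53 target (0.20), NOTCH (0.22), alveolar type 1 (0.35) and WNT target genes (0.50) had no called member either. Secreted lectins and epithelial defence genes held Reg3b and Reg3g as their called members among 17 (background 0.932% in either direction). Of the 17, 8 were positive and 9 negative. Their median, at -0.17, had no stable sign (0.18 without KPS replicate 1, 0.00 without KPS-HET replicate 1, 0.19 without KPS-HET replicate 2 and 0.16 with a macrophage marker term).

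**Figure D3:**
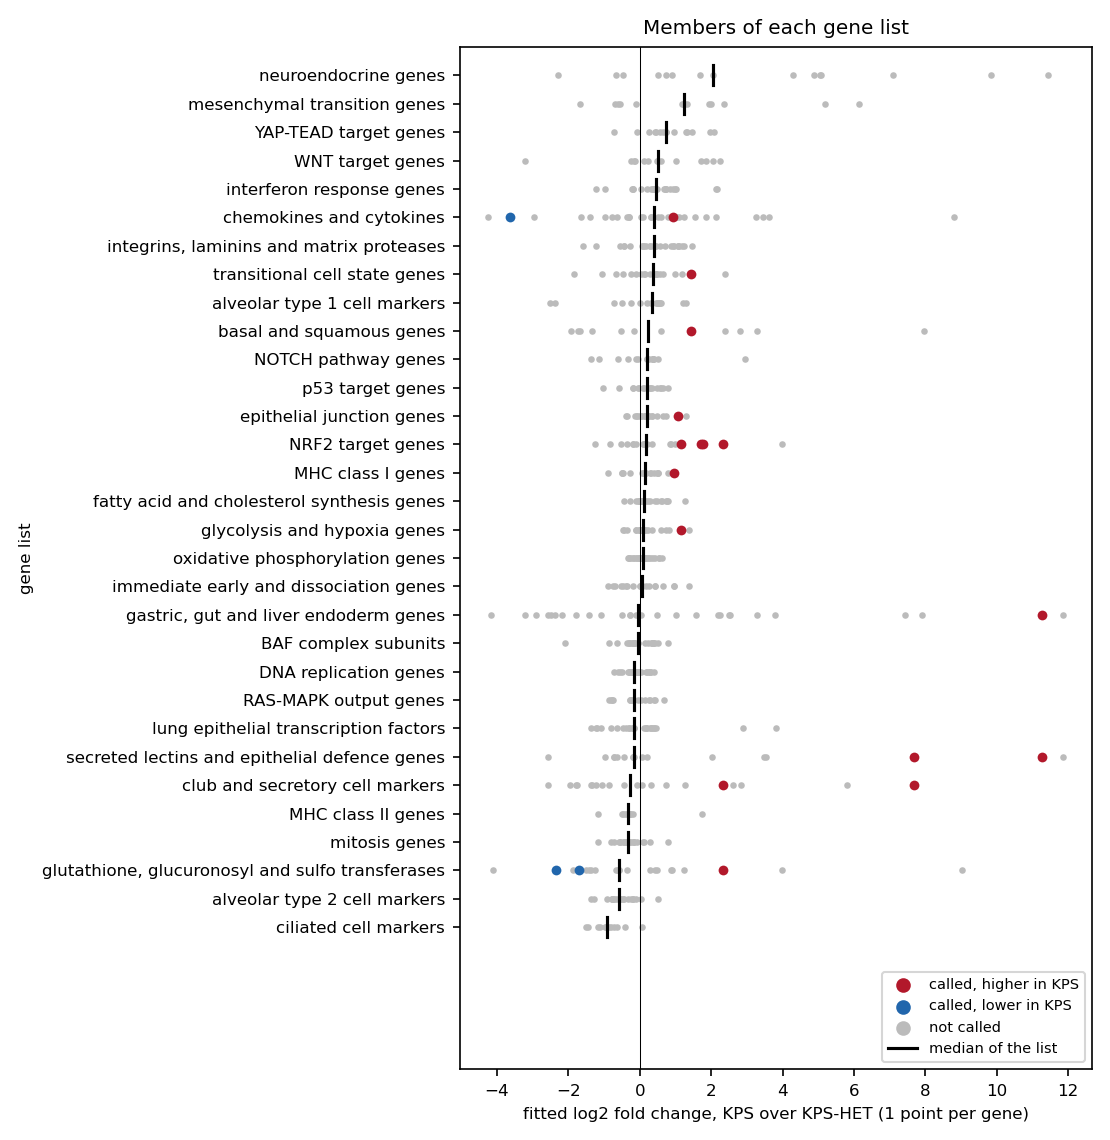
Fitted log2 fold change of KPS over KPS-HET for the tested members of each gene list (1 point per gene and list, lists in order of their median, black bars). Red points are members called higher and blue points members called lower in KPS; most lists hold grey points alone.

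Macrophage and monocyte markers had the same sign in every member and none passed. All 18 were positive, with a median of 1.59 on the log2 scale, and the smallest adjusted p was 0.368, for Itgax. The median was 0.06 without KPS replicate 1 and 3.66 without KPS-HET replicate 1, the libraries with the highest level in each group. Mesothelial markers summed to 1082, 1404 and 2518 CPM in KPS against 192 and 593 CPM in KPS-HET, mostly from Msln, which tumour cells can also express. Endothelial markers summed to 92.7, 62.8 and 183 CPM in KPS against 121 and 100 CPM in KPS-HET, which overlap. B cell markers summed to 3.45 to 5.92 CPM in KPS against 15.2 and 10.9 CPM in KPS-HET, and red blood cell markers to 42.6 to 73.8 CPM in KPS against 8.95 and 24.9 CPM in KPS-HET. None of these lists had a called member, apart from Acta2 among the fibroblast and smooth muscle markers (background 0.932% in either direction). With a macrophage marker term 87 genes were called, 61 of them among the 146. Without both libraries with the highest macrophage level, a setting chosen after the data were seen, 14 genes were called, 8 of them among the 146, and the other KPS-HET library is then assumed to vary like the other groups.

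The same KPS libraries were also compared with KP, which has 4 libraries. In that comparison 1134 genes were called (7.24%), and the median standard error over genes was 0.275, against 0.329 for KPS over KPS-HET. Because the KPS libraries are shared, the values stand side by side and are no independent evidence. Reg3g differed by 7.68 from KPS-HET and by 5.50 from KP, Gsta4 by 2.34 and 2.48, Serpinb9 by 1.94 and 1.90, Hpn by -1.95 and -2.16, Acta2 by -4.41 and -5.16, and Habp2 by -7.26 and -7.62. Edn1 differed by 2.34 ± 0.38 from KPS-HET and by 1.45 ± 0.29 from KP. Six4 was called against KPS-HET and not against KP (-1.73 ± 0.50, adjusted p 0.0665), as were Dag1 (0.49 ± 0.16, adjusted p 0.101) and Pcbp4, an RNA-binding protein (0.71 ± 0.25, adjusted p 0.113), both picked after their values were seen. The difference between the comparisons is that of KPS-HET over KP, which passed in no gene. Smarca4 was called against KP (-1.40, adjusted p 0.00214).

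**Figure D4:**
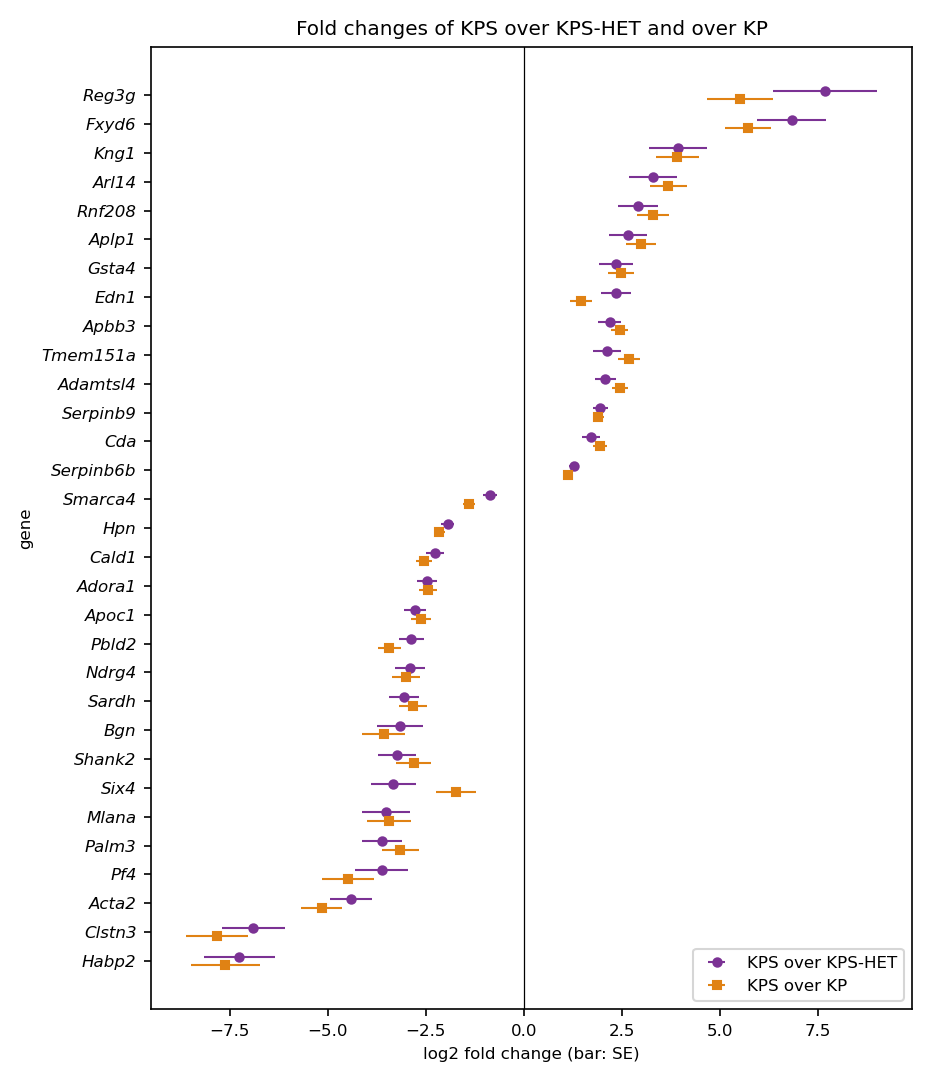
Log2 fold changes (points) with their standard errors (bars) for KPS over KPS-HET (purple circles) and KPS over KP (orange squares), for 30 of the 32 genes named by size or p and for Smarca4. Reg3b and Irs4 are left out because KPS-HET has 0 counts; the 2 points of a gene lie on the same side of 0 in every row, and they share the KPS libraries.

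The heterozygous group did not differ from KP in any gene by the main test. KPS-HET over KP gave 0 calls among the genes tested (0.0%) by edgeR, with 627 genes at an unadjusted p under 0.05 and a smallest adjusted p of 0.974, and limma-voom gave 0 calls as well. DESeq2 called 2 genes, Blnk and Vps13c. Blnk, a B cell adaptor, had 3.03, 2.57 and 2.76 CPM in KPS and 0.556 and 1.13 CPM in KPS-HET, against 0 counts in all KP libraries. Vps13c, a lipid transfer protein, had 14.3 to 15.5 CPM in KPS and 15.8 and 11.0 CPM in KPS-HET, against 3.92 to 6.45 CPM in KP. In Vps13c the KPS and KPS-HET libraries overlapped and both groups lay above KP. For 30 of the 32 genes named by size or p with counts in both groups, the log2 fold change of KPS-HET over KP lay between -2.18 (Reg3g) and 1.59 (Six4), and none was near the threshold. A p that misses the threshold with 2 libraries does not show that KPS-HET and KP are alike.

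**Figure D5:**
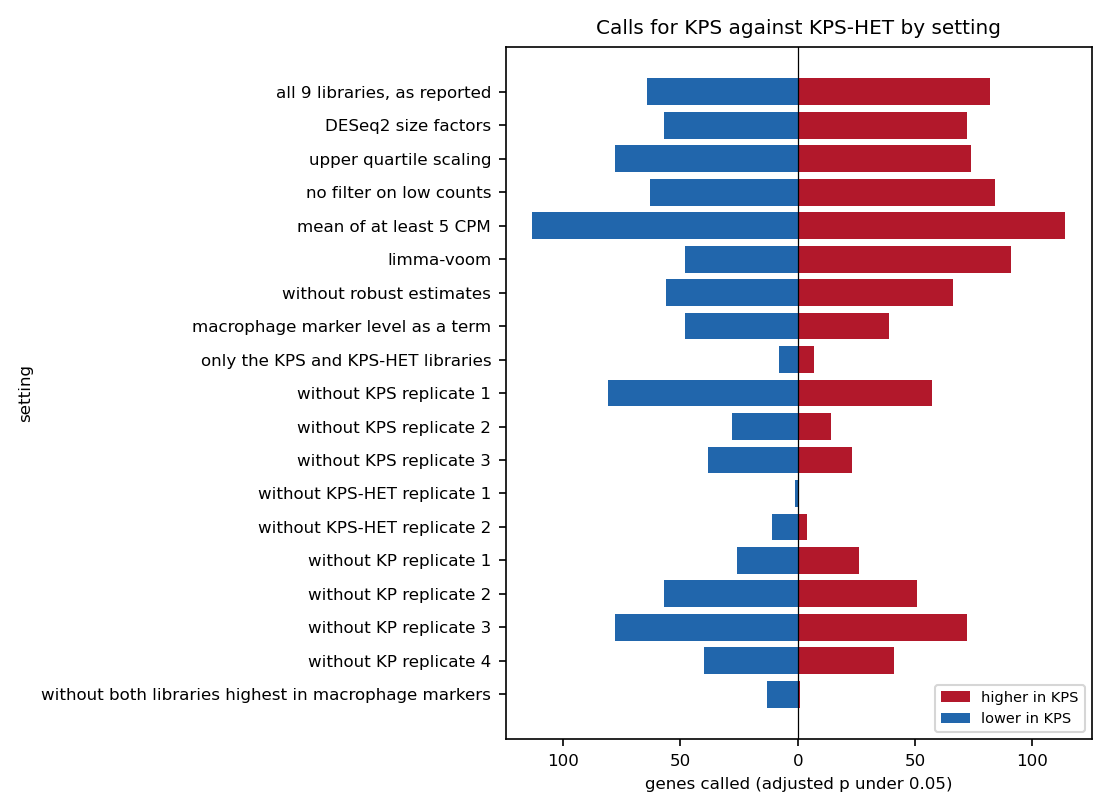
Number of genes called higher (red, right) and lower (blue, left) for KPS over KPS-HET in the reported fit (top row) and with other scalings, filters, tools or libraries. Leaving out KPS-HET replicate 1 leaves 1 call and fitting the 5 libraries of both groups alone leaves 15; DESeq2, with 991 calls, is not drawn.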

How the data were processed

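Estimated counts per gene of 9 polyA RNA libraries were used as the authors deposited them, with RSEM 1.3.1, Bowtie 1.2.3 and build mm9 per the submitters' processing notes. The sources used here do not give the strand setting, and near-identical paralogs share reads by estimation. Counts were rounded to whole numbers (change at most 0.5) and 25 symbols that are dates were kept as they stand. Library totals were 12607471 to 37114352. Groups came from the labels.

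Genes were tested with edgeR 4.0.16 (R 4.3.3) by a two-sided quasi-likelihood F test with TMM scaling, robust estimates and a coefficient for each group, all 9 libraries sharing the spread (residual degrees of freedom 6, common biological coefficient of variation 0.43), with Benjamini-Hochberg adjustment over 15663 genes after filterByExpr (minimum count 10, total 15) removed 7561 of 23224. Standard errors are the log2 fold change divided by the square root of F. Folds against a group at 0 counts are bounds from 3 counts over the group, for counting error only.

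The members and the lists were chosen with earlier results of these data known. Named genes were Smarca4, Smarca2, Trp53, the 12 called genes with the largest change and the 6 with the smallest p in each direction (mean of at least 5 CPM in a group, no overlap, no predicted gene models), and in each list the members of smallest p, at most 4. Most genes outside this rule are marked as chosen after their values were seen. Some list members given without that mark were not chosen by the rule either. Among them are Reg4, Nqo1, Gclm, Txnrd1, Gstp1, Alb, Ddc, Col1a1 and Col1a2. Alternatives were other scalings, filters, DESeq2 1.42.0, limma-voom 3.58.1, a macrophage marker term, fewer libraries and each library left out. A further conditional allele that all groups share, and 1 gene of the naming rule, are not reported here.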

Additional observations from a re-analysis of the deposited data

Results flagged for a closer look

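The level of Irs4 in KP was the only flag among 37 tested values (levels of named genes over the 4 KP libraries), and chance flags about 1 in 20 groups. Irs4 had 8.12, 1.36 and 13.0 CPM in KPS and 0 counts in KPS-HET, against 0, 0.0602, 0 and 0 CPM in the 4 KP libraries, where the nonzero value is 1 count in KP replicate 2. The gap between that library and the nearest other, divided by the whole range, was 1.0, above Dixon's critical value for 4 samples. With the other KP libraries at 0, any nonzero value gives a ratio of 1.0. The flag therefore says nothing beyond that 1 count.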

How the results depend on the processing

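The 146 calls of KPS over KPS-HET (82 higher, 64 lower) became 227 (113 lower) among genes with a mean of at least 5 CPM, 991 with DESeq2 (579 higher, 412 lower), 87 with a term for macrophage markers (39 higher), 15 with the 5 libraries of both groups alone (7 higher, 8 lower) and 14 without both libraries highest in macrophage markers (1 higher, 13 lower), a setting added after the data were seen. Leaving out each library in turn gave 1 to 150 calls (0 to 72 higher, 1 to 81 lower). The 1134 calls of KPS over KP became 2280 with DESeq2, 342 with the macrophage term, 726 without both libraries and 505 to 956 with a library left out. KPS-HET over KP had 0 calls, and 2 with DESeq2. Smarca4, at -0.86, passed with upper quartile scaling (-0.91), among genes averaging at least 5 CPM (-0.90) and with DESeq2 (-0.86), and ranged from -1.07 to -0.68 with a library left out. Upper quartile scaling gave 74 higher and 78 lower calls, limma-voom 91 and 48. Of 42 named called genes, 42 kept the call with upper quartile scaling and DESeq2, 31 with limma-voom, 27 with the macrophage term and 1 without KPS-HET replicate 1, and 0 reversed in any setting run. The causes were not tested. When 1 KPS-HET library is left out, the other is assumed to vary like the other groups. No paired analysis was possible because the labels give no batch, litter or pairing. They give no replicate numbers either, and those used here follow the order of the samples within each group. Only 2 libraries, 1 of them the shallowest, stand for the heterozygous group, which limits the precision of every difference from it.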
